A study of Mus musculus with 20 samples.

Results

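A set of 9 genes of tendon and its surrounding connective tissue were followed in limbs of mouse embryos with and without the transcription factor Lmx1b. These were the transcription factor genes Scx and Mkx, the membrane glycoprotein gene Tnmd, the thrombospondin genes Thbs2, Thbs3 and Thbs4, the matrix glycoprotein genes Tnc and Postn, and Dpt, which encodes a small proteoglycan-binding matrix protein. Each was found through the gene symbol that the array platform assigns to a probe set. All 9 were measured, each by 1 probe set, among 19936 genes. Every array carried RNA of a single whole limb of the 129Sv strain at embryonic day 13.5. The 20 arrays formed 4 groups of 5, namely wild-type forelimbs, Lmx1b -/- forelimbs, wild-type hindlimbs and Lmx1b -/- hindlimbs. The labels describe the mutation as a loss of function and name no Cre line or tissue-restricted promoter. Whole limbs were used, so tendon was measured together with every other limb tissue. The labels call the limbs biological replicates but do not say that each came from a different embryo, so p-values measure the spread between limbs.

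Limb tendons form from mesenchyme that first expresses the basic helix-loop-helix factor scleraxis, the product of Scx. Mohawk, the homeodomain factor made from Mkx, acts with it to drive the collagen genes of the maturing tendon. Tenomodulin, the product of Tnmd, appears later and marks differentiating tendon cells, and thrombospondins, tenascin-C and periostin fill the matrix of tendons and of their junctions with muscle and cartilage. Lmx1b is a LIM homeodomain factor of the dorsal limb mesenchyme. It sets the dorsal pattern of muscles and tendons.

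The values were intensities, analysed as log2, and a difference of 1 on that scale is a 2-fold change. All differences were tested with limma across the 19936 genes, and a gene was called where the Benjamini-Hochberg adjusted p was under 0.05. The Lmx1b probe set was lower on all 10 knockout arrays than on any wild-type array of the same limb type, by 0.55 (SE 0.049; adjusted p = 2.63e-07), a separation that held for 0.271% of all genes. It kept a signal in the knockouts, and which part of the gene it covers was not examined here. The forelimb gene Tbx5 read 8.26 to 8.93 on forelimb arrays and 4.38 to 5.09 on hindlimb arrays, and the hindlimb gene Pitx1 read 5.18 to 5.75 and 8.22 to 8.57, so limb labels and genes matched on every array. By Y-linked genes, 13 limbs were male, with all 5 wild-type forelimbs but 2 of the 5 knockout forelimbs among them and 3 of 5 in each hindlimb group.

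In forelimbs without Lmx1b, 3 of the 9 genes fell, namely Thbs4 (2.92-fold), Tnmd (2.02-fold) and Thbs2 (1.67-fold), and none rose. Of all genes tested in that comparison, 1.03% were called lower and 0.241% higher. In RNA of a whole limb, fewer cells of a type and less RNA per cell cannot be told apart. In hindlimbs 0 of 9 passed the test, where 0.226% of all genes were called lower and 0.00502% higher. No member had an unadjusted p under 0.05 there, although 5.75% of all genes did. With both limb types combined, Thbs4 and Tnmd fell, 2 of 9, where 1.57% of all genes were called lower and 0.466% higher. The transcription factor genes Scx and Mkx passed in no comparison. The median difference of the 9 genes was -0.41 in forelimbs and -0.13 in hindlimbs, against medians over all genes of 0.0013 and -0.0040.

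**Figure D1:**
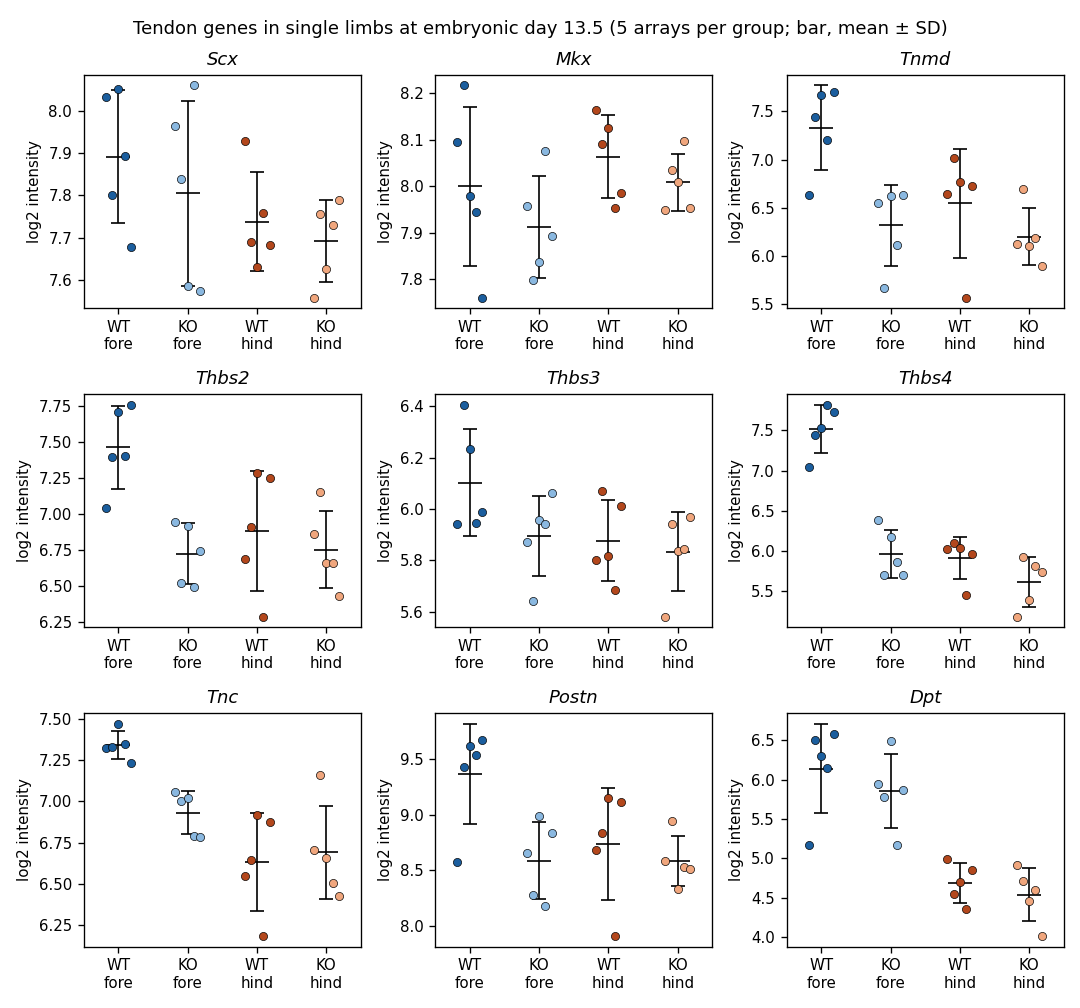
Log2 intensity of the 9 tendon genes on each array, 1 panel per gene with its own vertical scale; points are single limbs of the 4 groups (WT, wild type; KO, Lmx1b -/-), and bars give the mean and SD of 5 arrays. For Thbs4 the 5 wild-type forelimbs, at 7.05 to 7.82, stand above all other arrays, whereas for Scx and Mkx all 4 groups overlap.

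Scx, which encodes scleraxis, had nearly the same level in all groups. It read 8.03, 7.80, 8.05, 7.89 and 7.68 in wild-type forelimbs (mean 7.89 ± 0.16 SD, n = 5). In knockout forelimbs it read 7.96, 7.84, 7.59, 8.06 and 7.57 (mean 7.80 ± 0.22). The highest and the lowest forelimb array were both knockouts. Wild-type hindlimbs read 7.93, 7.69, 7.63, 7.76 and 7.68 (mean 7.74 ± 0.12) and knockout hindlimbs 7.56, 7.76, 7.62, 7.73 and 7.79 (mean 7.69 ± 0.10). The order of the means was wild-type forelimb, knockout forelimb, wild-type hindlimb, knockout hindlimb, and no neighbours in it differed beyond their spread. The knockout was lower by 0.07 over both limb types, with a 95% interval from -0.20 to 0.07 (limma, adjusted p = 0.697).

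Mkx, the second factor, was as level. It read 8.10, 8.22, 7.98, 7.94 and 7.76 in wild-type forelimbs (mean 7.999 ± 0.17 SD, n = 5) and 7.96, 7.80, 7.84, 8.07 and 7.89 in knockout forelimbs (mean 7.91 ± 0.11). In hindlimbs the wild types read 8.16, 8.09, 8.13, 7.95 and 7.99 (mean 8.06 ± 0.09), and the knockouts 7.95, 8.04, 8.01, 8.10 and 7.95 (mean 8.01 ± 0.06). All 4 groups overlapped, and its highest mean was that of wild-type hindlimbs. The knockout difference over both limb types was -0.07, with a 95% interval from -0.18 to 0.04 (limma, adjusted p = 0.567).

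Tnmd fell in knockout forelimbs. It read 6.64, 7.45, 7.68, 7.20 and 7.70 in wild-type forelimbs (mean 7.33 ± 0.44 SD, n = 5). In knockout forelimbs it read 6.55, 5.66, 6.62, 6.11 and 6.63 (mean 6.32 ± 0.42). The groups did not overlap, but the lowest wild-type forelimb, replicate 1, stood at 6.64 beside a highest knockout of 6.63. The difference was -1.02 (SE 0.245; limma, adjusted p = 0.0403). Wild-type hindlimbs read 6.64, 7.02, 6.77, 5.57 and 6.73 (mean 6.54 ± 0.56), all below 4 of the 5 wild-type forelimbs and overlapping the knockouts. Knockout hindlimbs read 6.13, 6.70, 6.10, 6.19 and 5.89 (mean 6.20 ± 0.30). The hindlimb genotype difference was -0.34 (SE 0.245; adjusted p = 0.959), with a 95% interval from -0.85 to 0.16. The call in forelimbs was not firm. It was lost without any 1 of 10 arrays (wild-type forelimb replicates 2, 3, 4 or 5, wild-type hindlimb 6 or 10, knockout forelimb 1, 2 or 4, knockout hindlimb 8), where the adjusted p rose to at most 0.132 and the difference ran from -0.85 to -1.08. In both limb types together, Tnmd was lower by 0.68 (SE 0.173; adjusted p = 0.0432), and that call was lost without any 1 of 14 arrays, with adjusted p up to 0.0916. The 6 arrays whose removal kept it were replicate 1 of the wild-type forelimbs, 9 of the wild-type hindlimbs, 1, 3 and 5 of the knockout forelimbs and 7 of the knockout hindlimbs.

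Thbs4, a pentameric thrombospondin of tendon and of the muscle-tendon junction, had the largest genotype difference of the 9 in forelimbs. It read 7.05, 7.44, 7.53, 7.82 and 7.73 in wild-type forelimbs (mean 7.51 ± 0.30 SD, n = 5). In knockout forelimbs it read 6.38, 5.70, 6.17, 5.86 and 5.71 (mean 5.97 ± 0.30). Every knockout forelimb lay below every wild-type forelimb, and the gap between the groups exceeded the SD of either. The difference was -1.55 (SE 0.166; limma, adjusted p = 1.04e-05), and it stayed called without any single array, between -1.66 and -1.47. Wild-type hindlimbs read 6.03, 6.10, 6.04, 5.45 and 5.96 (mean 5.92 ± 0.26), near the knockout forelimbs. Knockout hindlimbs read 5.19, 5.93, 5.40, 5.81 and 5.75 (mean 5.61 ± 0.31) and overlapped the wild types, with a difference of -0.30 (SE 0.166; adjusted p = 0.920). In the order of the means, wild-type forelimbs came first and stood apart, and the arrays of the next 3 groups overlapped. Knockout hindlimbs stood at -0.35 against knockout forelimbs, which was not called (limma, adjusted p = 0.500). Taken over both limb types, the difference was -0.92 (SE 0.118; adjusted p = 5.03e-05).

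Thbs2, a trimeric thrombospondin of fibroblasts that affects collagen fibril assembly, fell in knockout forelimbs by less. It read 7.04, 7.40, 7.71, 7.40 and 7.76 in wild-type forelimbs (mean 7.46 ± 0.29 SD, n = 5) and 6.94, 6.52, 6.92, 6.49 and 6.75 in knockout forelimbs (mean 6.72 ± 0.21). No arrays overlapped, and wild-type forelimb replicate 1 was again the lowest of its group. The difference was -0.74 (SE 0.172; limma, adjusted p = 0.0339). In hindlimbs the wild types read 6.69, 6.91, 7.29, 6.29 and 7.25 (mean 6.88 ± 0.42) and the knockouts 6.86, 7.15, 6.66, 6.66 and 6.43 (mean 6.75 ± 0.27), so that all knockouts lay inside the wild-type range. There the difference was -0.13 (SE 0.172; adjusted p = 0.990). The forelimb call was lost without any 1 of 7 arrays (wild-type forelimb replicates 2, 3, 4 or 5, knockout forelimb replicates 2, 4 or 5), with an adjusted p of at most 0.120 and a difference between -0.66 and -0.75 in those fits. Thbs2 missed the threshold over both limb types at -0.43 (SE 0.121; adjusted p = 0.0688), and passed it when wild-type forelimb replicate 1 was left out (0.0291), and likewise for replicate 9 of the wild-type hindlimbs (0.0132) or replicate 7 of the knockout hindlimbs (0.0347). It also passed over both limb types in 3 of 13 other settings, namely among genes with a mean level of at least 5 (0.0482), with array weights (0.0318) and with a random block of genotype and number (0.0430).

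Thbs3, which encodes a relative of Thbs4 found in cartilage and tendon, was called in no comparison. Its arrays ranged from 5.94 to 6.41 in wild-type forelimbs, 5.64 to 6.06 in knockout forelimbs, 5.68 to 6.07 in wild-type hindlimbs and 5.58 to 5.97 in knockout hindlimbs. All 4 groups overlapped. The forelimb genotype difference was -0.21 (SE 0.102; limma, adjusted p = 0.390).

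The sequences upstream of the 3 genes that fell in knockout forelimbs are shown because Lmx1b and scleraxis belong to families with known short recognition cores. TAATTA is a core bound by many homeodomain factors and CANNTG is the E-box of helix-loop-helix factors. Both read the same on either strand. Each sequence holds the 250 bases before the annotated start, 5′ to 3′ along the gene, from RefSeq on GRCm38.p6, with matches in capitals. They are chrX:133850758-133851007 on the plus strand for Tnmd, chr17:14694263-14694512 on the minus strand for Thbs2 and chr13:92794819-92795068 on the minus strand for Thbs4.
Tnmd: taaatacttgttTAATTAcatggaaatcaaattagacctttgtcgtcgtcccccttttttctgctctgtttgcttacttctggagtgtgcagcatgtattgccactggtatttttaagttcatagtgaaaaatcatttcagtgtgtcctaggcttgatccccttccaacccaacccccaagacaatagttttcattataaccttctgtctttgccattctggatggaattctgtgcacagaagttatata
Thbs2: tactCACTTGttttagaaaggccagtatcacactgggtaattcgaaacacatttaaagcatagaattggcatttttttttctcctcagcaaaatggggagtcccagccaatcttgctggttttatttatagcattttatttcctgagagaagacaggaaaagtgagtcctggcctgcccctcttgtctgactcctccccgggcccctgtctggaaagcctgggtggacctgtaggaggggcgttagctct
Thbs4: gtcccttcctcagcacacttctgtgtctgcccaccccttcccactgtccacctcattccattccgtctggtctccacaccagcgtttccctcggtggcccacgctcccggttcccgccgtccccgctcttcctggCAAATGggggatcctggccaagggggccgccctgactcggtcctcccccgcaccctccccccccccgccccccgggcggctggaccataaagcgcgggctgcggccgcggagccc
Tnmd had 1 TAATTA, 238 bases before its start, and no E-box. Thbs2 had 1 E-box at 246 bases and Thbs4 had 1 at 115 bases, and neither had TAATTA. Among 32851 upstream windows of the same length, 4.84% held TAATTA and 66.2% held an E-box. Of the 7 members with an entry, 1 had TAATTA and 5 had an E-box. A match describes letters only.

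Tnc encodes tenascin-C, an anti-adhesive glycoprotein of tendons and other mechanically loaded tissue. It read 7.33, 7.33, 7.47, 7.35 and 7.23 in wild-type forelimbs (mean 7.34 ± 0.08 SD, n = 5). In knockout forelimbs it read 7.05, 7.003, 7.02, 6.79 and 6.79 (mean 6.93 ± 0.13). The groups did not overlap, as held for Tnc, Thbs2, Thbs4 and Tnmd, 4 of the 9 members, and for 1.72% of all genes. Even so, the difference of -0.41 (SE 0.127) missed the threshold (limma, adjusted p = 0.139). It passed at an adjusted p of 0.0227 in a fit of the forelimb arrays alone, where the wider spread of the hindlimbs did not enter. Wild-type hindlimbs read 6.55, 6.64, 6.92, 6.18 and 6.87 (mean 6.63 ± 0.30) and knockout hindlimbs 6.71, 7.16, 6.65, 6.50 and 6.43 (mean 6.69 ± 0.28). These overlapped, and the difference was 0.06 (SE 0.127; adjusted p = 0.995).

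Postn encodes periostin, a matricellular protein that supports collagen cross-linking. It read 8.57, 9.42, 9.61, 9.54 and 9.66 in wild-type forelimbs (mean 9.36 ± 0.45 SD, n = 5) and 8.66, 8.28, 8.99, 8.18 and 8.83 in knockout forelimbs (mean 8.59 ± 0.35). Without wild-type forelimb replicate 1 no arrays of these groups overlapped. The difference was -0.77 (SE 0.219; limma, adjusted p = 0.0973), and it passed at -0.97 without wild-type forelimb replicate 1 (adjusted p = 0.0123) and at -0.77 with replicate 9 of the wild-type hindlimbs left out (adjusted p = 0.0384). With array weights it passed at -0.85 (adjusted p = 0.0349). In hindlimbs the wild types read 8.68, 8.83, 9.14, 7.91 and 9.11 (mean 8.74 ± 0.50) and the knockouts 8.59, 8.94, 8.34, 8.53 and 8.51 (mean 8.58 ± 0.22), all inside the wild-type range. For both limb types together the difference was -0.46 (SE 0.155; adjusted p = 0.139), and either omission brought it past the threshold (adjusted p = 0.0286 and 0.0263).

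Dpt encodes dermatopontin, which binds decorin and collagen in connective tissue. It separated limb types, not genotypes. It read 5.17, 6.51, 6.30, 6.14 and 6.58 in wild-type forelimbs (mean 6.14 ± 0.57 SD, n = 5) and 5.95, 5.78, 6.50, 5.18 and 5.87 in knockout forelimbs (mean 5.85 ± 0.47). Wild-type hindlimbs read 4.99, 4.54, 4.70, 4.36 and 4.85 (mean 4.69 ± 0.25) and knockout hindlimbs 4.92, 4.71, 4.46, 4.60 and 4.02 (mean 4.54 ± 0.34). All 10 forelimb arrays lay above all 10 hindlimb arrays, and within each limb type the genotypes overlapped. The genotype difference was -0.29 (SE 0.236; limma, adjusted p = 0.657) in forelimbs and -0.15 (SE 0.236; adjusted p = 0.990) in hindlimbs.

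**Figure D2:**
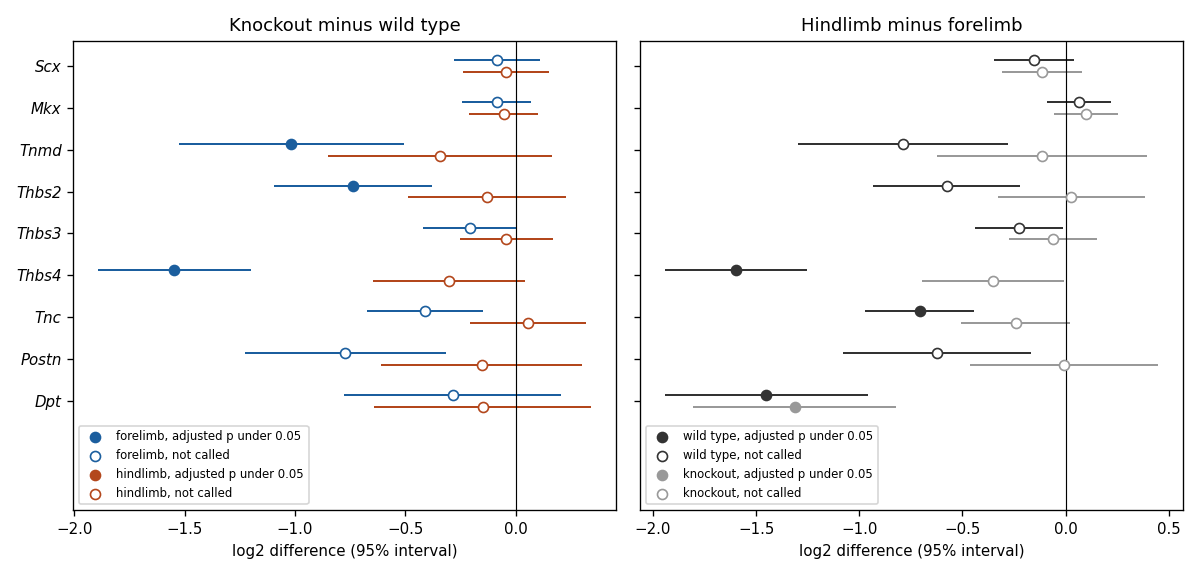
Log2 differences of the 9 genes with 95% intervals from limma, knockout minus wild type on the left and hindlimb minus forelimb on the right; filled points passed an adjusted p of 0.05. Thbs4, Tnmd and Thbs2 are filled for the forelimb genotype difference and none for the hindlimb, and Dpt is the only member filled in both genotypes for limb type.

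Whether the genotype difference itself differed between limb types was tested with an interaction term. No member passed it, while 4 of all genes did (0.0201%). All 9 estimates were above 0, meaning a smaller fall or none in hindlimbs, where 47.8% of all genes were above 0. The same direction held for all 20 skeletal muscle, 13 cartilage and 8 bone markers measured and for 16 of 17 fibril genes. Of the members 3 had an unadjusted p under 0.05 (Thbs4, Tnc and Thbs2) against 3.63% of all genes. For Thbs4 the hindlimb difference was 1.24 above the forelimb one (SE 0.235; 95% interval 0.76 to 1.73; limma, adjusted p = 0.0808). That value passed when replicate 1 of the wild-type forelimbs (1.36; 0.0169), replicate 1 of the knockout forelimbs (1.35; 0.0346) or replicate 6 of the knockout hindlimbs (1.35; 0.0345) was left out. For Tnmd it was 0.67 (95% interval -0.05 to 1.39), for Thbs2 0.60 (0.10 to 1.11), for Tnc 0.47 (0.09 to 0.84) and for Postn 0.62 (-0.03 to 1.26), each at an adjusted p of 1.00. So a forelimb-restricted effect was not established for any of the 9.

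Between limb types in wild-type embryos, hindlimbs had less Thbs4, Dpt and Tnc, 3 of 9 genes, and 2.49% of all genes were called lower and 0.772% higher in hindlimbs. Thbs4 was lower by 1.60 (SE 0.166; limma, adjusted p = 5.48e-06), a 3.02-fold difference. Dpt was lower by 1.45 (SE 0.236; adjusted p = 0.00108), or 2.73-fold, and Tnc by 0.71 (SE 0.127; adjusted p = 0.00274), or 1.63-fold. The hindlimb means of Dpt, 4.69 and 4.54, lay below the median of every array (4.84 to 4.99). No detection call was used here, so whether they stood above background is not known and the folds given for Dpt rest on a dim signal. For each of these 3 genes all 5 wild-type hindlimbs lay below all 5 forelimbs, as they did for 3.20% of all genes. Tnmd at -0.79, Postn at -0.63 and Thbs2 at -0.58 did not pass, with adjusted p of 0.0842, 0.134 and 0.0693. Without wild-type forelimb replicate 1, the lowest forelimb for all 3, each of them passed (-0.96, -0.82 and -0.68), and Thbs2 also passed without wild-type hindlimb replicate 8 or 10 (adjusted p = 0.0297 and 0.0430), among genes with a mean level of at least 5 (0.0441) and with array weights (0.0347). Scx differed by -0.15 (SE 0.094) and Mkx by 0.06 (SE 0.075), neither called. The wild-type forelimbs are shared by this comparison and by the forelimb genotype comparison, so the values of Thbs4 in the 2 (-1.60 and -1.55) are not independent.

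Between limb types in the knockouts only Dpt passed, 1 of 9, with 0.441% of all genes called lower and 0.176% higher. Its difference was -1.31 (SE 0.236; limma, adjusted p = 0.00794), a 2.49-fold difference with all 5 hindlimbs below all 5 forelimbs, as for 0.943% of all genes. Thbs4 differed by -0.35 (SE 0.166; adjusted p = 0.500) and Tnc by -0.24 (SE 0.127; adjusted p = 0.557). Postn at -0.0081 and Thbs2 at 0.03 were level between the knockout limb types.

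Other tendon genes were read by list. Among 19 measured regulators and signals of tendon formation, which include the transforming growth factor beta and fibroblast growth factor pathways, 2 rose over both limb types and none fell, and the median difference was -0.02 against -0.0021 for all genes. The 2 were Eya1 at 0.53 (SE 0.088; limma, adjusted p = 0.0016) and Six2 at 0.31 (SE 0.070; adjusted p = 0.0195), partners in a transcription complex known in limb tendons. Both also rose in forelimbs alone, and none of the 19 passed in hindlimbs. Of all genes 0.466% were called higher over both limb types and 0.241% in forelimbs. Tgfb2, whose ligand recruits tendon progenitors, was at -0.24 (adjusted p = 0.0619). Between wild-type limb types 2 of the 19 were lower in hindlimbs, Eya2 and the receptor gene Tgfbr2, and both were again lower in knockout hindlimbs.

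Fibril genes formed the next list. Of 17 collagens, collagen-binding proteoglycans and cross-linking genes, 10 fell over both limb types, 9 in forelimbs and 2 in hindlimbs, and none rose. Over all genes 1.57%, 1.03% and 0.226% were called lower in these comparisons. The list medians were -0.37, -0.56 and -0.18, against -0.0021, 0.0013 and -0.0040 over all genes. Kera, which encodes the fibril-binding proteoglycan keratocan, fell by 3.09 in forelimbs (SE 0.146; limma, adjusted p = 1.61e-11). In hindlimbs it fell by 2.87 (SE 0.146; adjusted p = 7.29e-11). Lum, for lumican, fell by 1.29 in forelimbs (SE 0.140; adjusted p = 1.09e-05) and in hindlimbs it fell by 1.08 (SE 0.140; adjusted p = 0.000209). Col12a1, a collagen on the fibril surface, fell by 0.93 in forelimbs (SE 0.137; adjusted p = 0.000519) and stood at -0.31 in hindlimbs (SE 0.137; adjusted p = 0.823), beside -1.55 and -0.30 for Thbs4. Dcn, for decorin, fell by 0.86 in forelimbs (adjusted p = 0.0194) and stood at -0.76 in hindlimbs (adjusted p = 0.137). In wild-type hindlimbs 7 of the 17 were below forelimbs, Col14a1 (-1.29) and Col12a1 (-0.94) among them, and in knockouts 1 was, Col14a1 (-1.02). Of all genes 2.49% were called lower in wild-type hindlimbs and 0.441% in knockout hindlimbs.

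**Figure D3:**
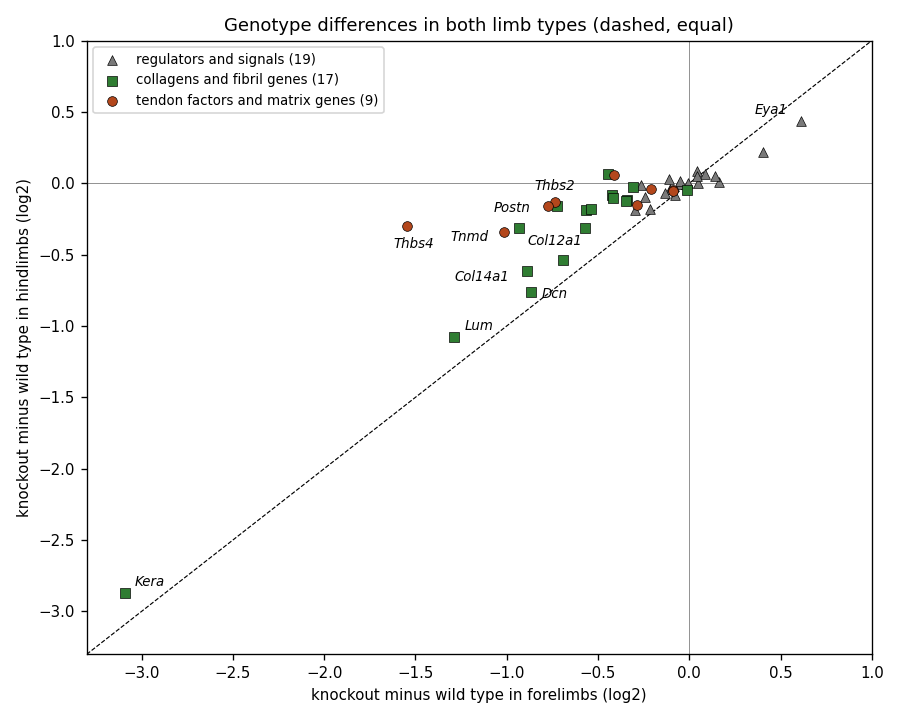
Genotype difference (knockout minus wild type, log2) in forelimbs on the horizontal axis and in hindlimbs on the vertical axis for the 9 tendon genes, 17 fibril genes and 19 regulators and signals; each point is a gene and the dashed line marks equal differences. Kera and Lum lie near the line, at -3.09 and -2.87 and at -1.29 and -1.08, whereas Thbs4 lies well above it at -1.55 and -0.30.

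Few close relatives and partners of the members passed the test, but all had forelimb genotype differences below 0. These were 8 relatives and 17 partners, with medians of -0.18 and -0.16, where 49.6% of all genes were below 0. In forelimbs 1 gene of each list was called lower, beside 1.03% of all genes. Of 8 family relatives (other thrombospondin, tenascin, periostin-like, tenomodulin-like and scleraxis-like genes) none passed over both limb types or in hindlimbs. In forelimbs 1 fell, the tenascin gene Tnn (-0.41; limma, adjusted p = 0.0302). Tnn and Thbs1 were lower in wild-type hindlimbs than forelimbs (-0.54 and -0.43). The group means of Tnn, 4.24 to 4.78, lay below the median of every array (4.84 to 4.99). Whether Tnn stood above background is therefore not known. Comp, the thrombospondin nearest to Thbs4 in tendon and cartilage, was at -0.37 in forelimbs (adjusted p = 0.274) and 0.09 in hindlimbs (adjusted p = 0.990). Its means in knockout forelimbs (4.73), wild-type hindlimbs (4.74) and knockout hindlimbs (4.83) also lay below the median of every array. Of 17 receptors and matrix partners only the microfibril gene Fbn2 passed, at -0.34 over both limb types (adjusted p = 0.0463), -0.56 in forelimbs and -0.63 between wild-type limb types.

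Markers of skeletal muscle moved along with the tendon matrix genes. Their mean level over 20 genes was 7.47 to 7.90 in wild-type forelimbs, 7.11 to 7.48 in knockout forelimbs, 6.75 to 7.18 in wild-type hindlimbs and 6.83 to 7.22 in knockout hindlimbs. In knockout forelimbs 4 of 20 fell (Actn2, Tnnt3, Acta1 and Ckm) with a list median of -0.34, and none passed in hindlimbs. Between wild-type limb types all 20 were lower in hindlimbs, with a median of -0.61, Myod1 (-0.55) and Myog (-0.67) included, and in knockouts 2 were. Of all genes 1.03% were called lower in knockout forelimbs. Between limb types 2.49% were called lower in wild-type hindlimbs and 0.441% in knockout hindlimbs. With the muscle mean as a covariate, Thbs4 stayed lower in knockout forelimbs, at -1.01 (limma, adjusted p = 0.000224). Under the same covariate Tnmd was at -0.38 (adjusted p = 0.887) and Thbs2 at -0.25 (adjusted p = 0.887). All 3 limb-type calls in wild types were lost, with Thbs4 at -0.65 (adjusted p = 0.453), Tnc at -0.22 (adjusted p = 0.988) and Dpt at -0.76 (adjusted p = 0.976), and so was Dpt in knockouts at -0.97 (adjusted p = 0.304). The covariate itself differs between the groups, so it takes up part of any difference between them. Over all genes, it cut the wild-type limb-type calls from 496 lower and 154 higher to 3 and 9. Forelimb genotype calls over all genes went from 205 lower and 48 higher to 33 and 11. The loss of member calls is therefore not particular to these genes.

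Sex also moved with the forelimb groups. In the 13 male arrays alone, Thbs4 in forelimbs stood at -1.47 (limma, adjusted p = 0.0150), Tnmd at -0.74 (adjusted p = 0.540) and Thbs2 at -0.62 (adjusted p = 0.460), with 5 wild-type and 2 knockout forelimbs. With the level of Y-linked genes as a covariate they stood at -1.56 (adjusted p = 0.000113), -0.96 (adjusted p = 0.139) and -0.69 (adjusted p = 0.126). Over both limb types in male arrays, Thbs4 was at -0.82 (adjusted p = 0.0501). Dpt between knockout limb types was at -1.17 (adjusted p = 0.490) in male arrays.

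Some markers of other cell types also fell in knockout forelimbs. Of 8 measured bone and perichondrium genes 4 fell there, Ibsp, which encodes bone sialoprotein, by the most at -2.40 (SE 0.341; limma, adjusted p = 0.000351). Ostn was at -0.88, Alpl at -0.55 and Sp7 at -0.45, each called. In hindlimbs Ibsp stood at -0.21 (adjusted p = 0.990) and none of the 8 passed, so these 4 genes, like Thbs4, Tnmd and Thbs2, were called in forelimbs and not in hindlimbs. But Ibsp and Ostn were dim in wild-type hindlimbs, with means of 3.85 and 3.71 below the median of every array (4.84 to 4.99). Ostn stood at -0.31 in hindlimbs (limma, adjusted p = 0.893). Whether the dim signal limited the differences seen there was not tested. Ibsp also spread from 3.94 to 6.96 among wild-type forelimbs. The difference of the genotype effects of Ibsp was 2.19 (limma, adjusted p = 0.340). Forelimb calls lower in the knockout also included Dcx of 8 joint genes (-0.50), Tek of 10 endothelium genes (-0.45), Mrc1 and Csf1r of 10 macrophage genes (-0.54 and -0.38) and Gap43 of 8 nerve genes (-0.38). None of 13 cartilage or 10 epidermis genes passed, and 1.03% of all genes were called lower there. The joint list was split in forelimbs, with 4 genes below 0, 4 above and a median of -0.0075. Of the 8 nerve genes 5 were below 0 and 3 above. All 8 bone, 13 cartilage, 10 endothelium and 10 macrophage genes were below 0 in forelimbs, as were 49.6% of all genes, with list medians of -0.40, -0.19, -0.16 and -0.26 beside -0.41 for the 9 tendon genes. Over both limb types 4 bone genes (Ibsp at -1.30, Ostn at -0.60, Alpl at -0.33 and Sp7 at -0.30), 1 joint gene (Dcx, -0.40), 2 endothelium genes (Tek and Emcn) and 2 macrophage genes (Mrc1 and Csf1r) fell. There, of 6 genes of muscle connective tissue 1 rose (Meox2, 0.21; 0.30 in forelimbs), and of 8 nerve genes 1 rose (Stmn2, 0.30) and 1 fell (Gap43, -0.40). In wild-type hindlimbs 6 of the 8 bone genes, 3 macrophage genes and 1 gene each of endothelium, epidermis and joint were below forelimbs, and so was Stmn2 of the nerve list. Sfrp2 of the joint list and Tubb3 of the nerve list were above. Of all genes 2.49% were called lower and 0.772% higher in that comparison. None of these lists but that of nerve, with Gap43, had a call for genotype in hindlimbs. The part of these cell types in the tendon gene results was not tested.

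Within groups, Tnmd and several matrix genes varied together from limb to limb, and no pair with either transcription factor gene passed the test. Correlations were taken over the deviations of the 20 arrays from their group means, with permutation tests of 100000 resamples within groups, two-sided, adjusted over 36 pairs. Of the 36 pairs 12 passed, all with r above 0, and by rank 8 passed. The lowest r among the 12 was 0.57, and 5.83% of all pairs among 11297 genes with a mean level of at least 5 had an r that high or higher. Thbs2 and Postn had the highest r, 0.89 (permutation p = 3e-05, adjusted p = 0.00108; Spearman's rho 0.92), and r was 0.84 without the 2 arrays farthest from the median of Thbs2. Tnmd and Postn had an r of 0.88 (adjusted p = 0.0036; rho 0.81; 0.76 without 2 arrays), and Tnmd and Thbs2 had 0.84 (adjusted p = 0.0023; rho 0.82; 0.72 without 2 arrays). Thbs3 passed only with Tnmd (r = 0.58, adjusted p = 0.0438), and Tnc passed with neither Thbs4 nor Dpt. Scx and Mkx took part in no called pair. The r of Scx with Mkx was 0.45 (adjusted p = 0.178, rho 0.43), and Scx with Postn and Dpt gave -0.47 and -0.55 (adjusted p = 0.139 and 0.0854). The arrays share their hybridisation and dissection, which enter every pair.

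Some limbs stood apart for most members at once. Wild-type forelimb replicate 1 lay below its group mean for 7 of the 9 genes, by 0.36 on average, with Dpt 0.97 and Postn 0.79 below. Wild-type hindlimb replicate 9 lay below for 8 of 9, by 0.44 on average, with Tnmd 0.98 and Postn 0.82 below. Scx was not low on either. Knockout hindlimb replicate 7 lay above its group mean for 9 of 9, by 0.27 on average, with Tnmd 0.50 and Tnc 0.47 above. Without the first array 5 pairs passed, without the second 6 and without the third 9. The r of the 12 called pairs, 0.57 to 0.89 with a median of 0.67 over all arrays, was 0.48 to 0.89 (median 0.59) without the first, 0.42 to 0.85 (median 0.65) without the second and 0.52 to 0.89 (median 0.66) without the third. In the 13 male arrays alone 3 pairs passed, with r of the 12 from 0.58 to 0.94 (median 0.70).

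**Figure D4:**
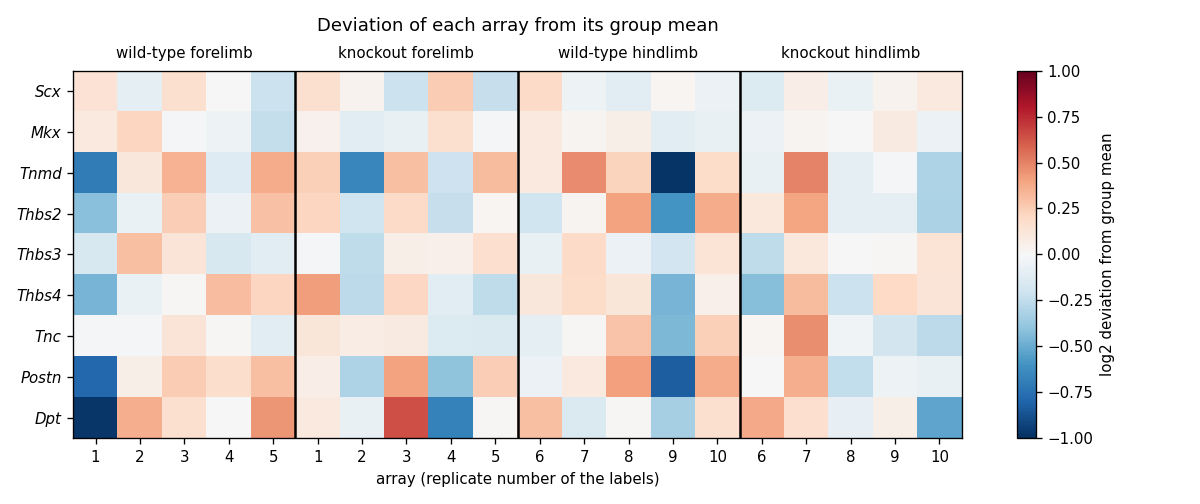
Deviation of each array from the mean of its group (log2, colour scale) for the 9 genes in rows and the 20 arrays in columns, in the order of the replicate numbers of the labels. Wild-type forelimb replicate 1 and wild-type hindlimb replicate 9 are blue for Tnmd, Thbs2, Thbs4, Postn and Dpt and pale for Scx and Mkx.

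The muscle marker mean varied with the same members within groups. Its r was 0.84 with Thbs4 (permutation test, adjusted p = 0.00045 over 9 tests; Spearman's rho 0.88; 0.85 without 2 arrays). It was 0.77 with Postn (adjusted p = 0.00144; rho 0.74; 0.79 without 2 arrays), 0.74 with Thbs2 (adjusted p = 0.00285), 0.66 with Tnmd (adjusted p = 0.0129) and 0.58 with Tnc (adjusted p = 0.0159). With Scx it was -0.19, with Mkx -0.37, with Thbs3 0.15 and with Dpt 0.43, none called. So limbs with a higher muscle marker mean than their group had more Thbs4, Postn, Thbs2, Tnmd and Tnc, but not detectably more Scx or Mkx. How many of all genes had an r this high with the muscle mean was not determined. These r are therefore not shown to be particular to the members.

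**Figure D5:**
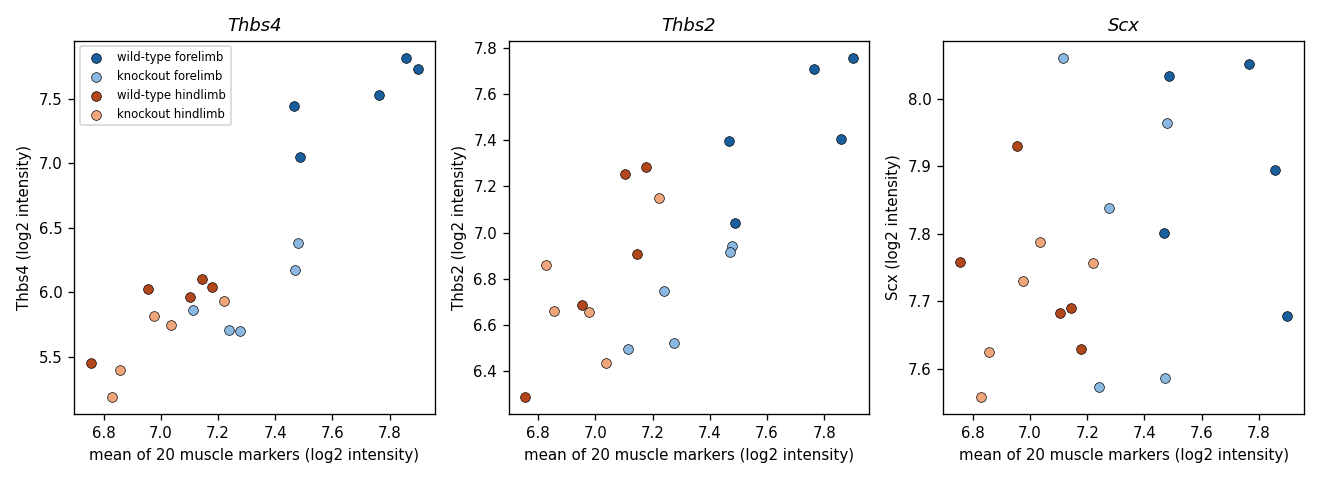
Log2 intensity of Thbs4, Thbs2 and Scx on the vertical axes against the mean log2 intensity of 20 skeletal muscle markers on the horizontal axis, 1 point per limb, coloured by group. Thbs4 is higher where the muscle mean is higher within groups (r = 0.84 after group means are removed). Scx shows no such trend (r = -0.19). Where the forelimb groups meet on the horizontal axis, the 2 knockouts at 7.48 and 7.47 read 6.38 and 6.17 for Thbs4. The 2 wild types at 7.49 and 7.47 read 7.05 and 7.44. No test was made on these few arrays, and the part of muscle in the genotype difference was not tested with them.

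The genes most like each member over the same deviations, among 10905 with a mean of at least 5, also differed between members. For Scx they were Prps1 (r = 0.87) and St13 (0.84), and for Mkx Dnajb4 (0.90) and Plod2 (0.88), which encodes a collagen lysyl hydroxylase. For Tnmd they were Cavin2 and the troponin gene Tnnt3 (both 0.93), for Thbs2 Lgi2 and Fbln5 (both 0.93) and for Postn Agtr2 and Dmrt2 (both 0.94). For Thbs4 they were Gnao1 (0.89) and Ptpn21 (0.87), for Thbs3 Mme (0.83) and Chad (0.79), for Tnc Hivep2 and Ghr (both 0.91) and for Dpt Kcne4 (0.88) and Tfap2c (0.86). These were picked as the highest of many values over 20 arrays and are descriptions.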

How the data were processed

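Single limbs (300 ng total RNA each, per the labels' protocols) were measured on Affymetrix GeneChip 1.0 ST arrays. Per the submitters' processing notes, RMA produced the deposited intensity values. They run from 1.65 to 13033 with array medians of 28.6 to 31.8, so they are linear, and log2 was taken here with no pseudocount. No label names the software version or the genome build. Of 35512 probe sets, 1 was empty, 21789 had 1 gene symbol, 1621 had several and 12101 had none; the last 2 kinds were left out. Where a gene had several probe sets, as 1001 genes did, the one with the highest mean was used, which gave 19936 genes.

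limma 3.58.1 (R 4.3.3) fitted 4 group means to all 20 arrays, with empirical Bayes moderation and Benjamini-Hochberg adjustment over all genes. On simulated data of this size, forelimb changes of 0.3, 0.6 and 1.2 were recovered in 35.8%, 86.6% and 100% of 67, 67 and 66 changed genes. Such rates were not obtained for the 9 members, so they do not tell which changes could have been missed in them. In forelimbs Postn at -0.77 (SE 0.219) missed the threshold (limma, adjusted p = 0.0973). Tnmd at -1.02 (SE 0.245) and Thbs2 at -0.74 (SE 0.172) passed, at adjusted p of 0.0403 and 0.0339. The number of arrays limits the precision. All 9 members were named, with Lmx1b, up to 4 genes of each other list by the smallest genotype p over both limb types, and the 2 genes most like each member. Outside this rule Tbx5 and Pitx1 checked the limb labels, and Ckm, Col14a1, Eya2, Myod1, Myog, Sfrp2, Tgfbr2 and Tubb3 were named after their values were seen. The members and lists were chosen with earlier results of these data known. Alternatives covered scaling, filters, probe sets, weights, priors, blocks, sex, muscle content, side and leaving out each array.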

Additional observations from a re-analysis of the deposited data

Results flagged for a closer look

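Within the 36 sets of 5 arrays formed by 9 genes and 4 groups, 3 had an array far from the other 4 by Dixon's test, where chance gives about 1 in 20. Tnmd on wild-type hindlimb replicate 9 read 5.57, while the other wild-type hindlimbs read 6.64 to 7.02. Thbs4 on the same array read 5.45, against 5.96 to 6.10 on the others. Postn on wild-type forelimb replicate 1 read 8.57, against 9.42 to 9.66 on the others. The muscle marker mean on wild-type hindlimb replicate 9, 6.75, was the lowest of its group, and that on wild-type forelimb replicate 1, 7.49, was the second lowest of its group.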

How the results depend on the processing

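In knockout forelimbs the 3 called members became 1, Thbs4, when all probe sets were tested, with a robust prior with trend, with Y-linked genes as a covariate, in male arrays and with muscle markers as a covariate. Over both limb types the 2 became 1 in the same fits but for male arrays (0), and 4 with array weights, which added Postn and Thbs2. Thbs2 also joined them among genes with a mean level of at least 5 and with a random block of genotype and number (3 each). The forelimb count was 4 with array weights (Postn added) and in a fit of the groups compared (Tnc added). Array weights gave 1 call for the difference of the genotype effects (Thbs4, adjusted p = 0.0467). The wild-type limb-type count went from 3 to 0 with the muscle covariate and to 4 with array weights and among genes with a mean level of at least 5 (Thbs2 added), and the knockout one from 1 to 0 with it and in male arrays. Without 1 array each, the counts ran from 1 to 4 (both limb types), 1 to 4 (forelimb), 0 to 0 (hindlimb), 0 to 1 (difference of effects), 3 to 6 (wild-type limb types, 6 without wild-type forelimb replicate 1) and 1 to 1 (knockout limb types). The called pairs ran from 5 to 13 of 36, and were 3 in male arrays; the alternatives for pairs were chosen after seeing the data. Fits of only the groups compared could not be made for both limb types or the difference of effects. Calls over all genes moved too. Those lower and higher in forelimbs, 205 and 48 in the main fit, were 257 and 109 with array weights. They were 148 and 15 in the groups compared, 124 and 15 with the Y-linked covariate and 33 and 4 in male arrays. A robust prior with trend gave 212 and 70. Over both limb types, 313 and 93 became 492 and 276 with array weights.

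No called difference of a member changed sign. Uncalled ones did, with the muscle covariate: Mkx (-0.10), Tnmd (0.33), Thbs2 (0.29) and Postn (0.54) between wild-type limb types, Tnmd (0.44), Thbs4 (0.12), Tnc (0.00080) and Postn (0.57) between knockout limb types, and Dpt in forelimbs (0.11) and for the difference of effects (-0.21, and -0.020 with the Y-linked covariate). In male hindlimbs Tnmd (0.024), Thbs2 (0.15), Postn (0.12) and Dpt (0.0069) did, as did Thbs2 with array weights (-0.033) and Postn with centred arrays (0.0031) between knockout limb types. Without 1 array, signs changed for Scx in hindlimbs (-0.074 to 0.0013) and the difference of effects (-0.017 to 0.10), Mkx for that difference (-0.022 to 0.092), Dpt for it (-0.033 to 0.38), Thbs3 (-0.090 to 0.021) and Tnc (-0.061 to 0.13) in hindlimbs, and Thbs2 (-0.072 to 0.11), Thbs3 (-0.12 to 0.0024) and Postn (-0.11 to 0.092) between knockout limb types. The causes were not tested. Same-numbered arrays did not all deviate together (9 of 30 pairs above an r of 0.1, from -0.31 to 0.40). Right limbs numbered 3 did in 5 of 6 pairs (0.05 to 0.40). These pairs include wild-type with knockout limbs, which cannot share an embryo. By Y-linked genes, wild-type right forelimbs numbered 2 and 3 were male and the right hindlimbs so numbered female. The numbers were thus not taken to pair the limbs. With the replicate block the member counts stayed at 2, 3, 0, 0, 3 and 1.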
